A study of Mus musculus with 12 samples.

Results

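A set of 111 TCRα clonotypes was found in every wt and every Il2° mouse but not in every Il15° mouse, out of 22578 clonotypes detected in 12 libraries. The set was chosen by detection: a clonotype, defined by its V segment, the amino acid sequence of its CDR3 and its J segment, had at least 1 count in each of 4 wt and 4 Il2° libraries and a count of 0 in at least 1 of 4 Il15° libraries. The wt libraries shared 648 clonotypes, and 289 of these were also present in the 4 Il2° libraries, so that the set made up 38.4% of the 289. The other 178 were present in all 12 libraries and are called core clonotypes. For comparison, 70 clonotypes were present in the 4 wt and 4 Il15° libraries and absent from at least 1 Il2° library, and these are called the mirror set. Within the 111, 6 clonotypes (5.41%) had no count in any Il15° library.

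Tcra mRNA was measured in newly developed regulatory T cells (Treg) from the thymus of individual mice aged 3 weeks, 100000 sorted cells per mouse, with 4 mice per genotype. All 12 mice were B6 animals that carried the Rag2-Gfp and Foxp3-Thy1a reporters, the Kaa Tcrb transgene and 1 null allele of Tcra (Tcra+/null). The genotypes compared were wt, Il2null (written Il2°) and Il15null (Il15°). The sort took CD4+CD8-Thy1.1+GFP+ cells, where Thy1.1 marks Foxp3 expression and GFP marks cells that transcribed Rag2 recently. The repertoire is therefore limited to α chains paired with a single transgenic β chain in cells with a single functional Tcra allele. Each count is a unique molecular identifier (UMI), that is, 1 tagged mRNA molecule, and more cells of a clone cannot be told apart from more Tcra mRNA per cell. The tables held Tcra alone, so the Treg identity of the sorted cells could not be checked with other genes. The invariant α chains of iNKT and MAIT cells were at 1 to 13 and 0 to 25 UMIs per library, and none belonged to the set.

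A TCRα chain is made when 1 of many TRAV segments is joined to 1 of many TRAJ segments. The CDR3, the loop that contacts the peptide on the MHC molecule, spans the junction, and bases can be trimmed from the ends or added between them. Chains that need few or no added bases are made often, and these tend to be public, meaning shared between individuals. Treg precursors are selected in the thymus by the strength of TCR signals. IL-2 and IL-15 then act through receptors that share the β chain and the common γ chain of the IL-2 receptor.

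The sequences below are the most frequent CDR3 reading of each of the 6 clonotypes that no Il15° library held, written 5′ to 3′ from the conserved cysteine codon to the last codon of the CDR3. Capitals mark bases that were assigned neither to the V nor to the J segment. They are shown because they separate chains that can be read from germline segments alone from those with bases in between.
TRAV7-2 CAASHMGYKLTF TRAJ9: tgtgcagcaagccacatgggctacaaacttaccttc
TRAV6D-7 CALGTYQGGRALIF TRAJ15: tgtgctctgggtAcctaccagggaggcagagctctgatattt
TRAV7-2 with TRAJ27 (13 residues): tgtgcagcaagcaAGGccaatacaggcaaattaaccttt
TRAV5-1 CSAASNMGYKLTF TRAJ9: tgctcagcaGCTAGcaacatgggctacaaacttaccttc
TRAV8-1 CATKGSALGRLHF TRAJ18: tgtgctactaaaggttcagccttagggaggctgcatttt
TRAV4D-4 with TRAJ12 (12 residues): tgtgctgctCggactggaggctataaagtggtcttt

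The TRAV7-2 with TRAJ9 and the TRAV8-1 with TRAJ18 chains had no base outside the V and J parts, the TRAV6D-7 and TRAV4D-4 chains had 1, the TRAV7-2 with TRAJ27 chain had 3 and the TRAV5-1 chain had 5. The TRAV5-1 chain was read from a single nucleotide sequence in all its 46 UMIs. In contrast, the TRAV6D-7 chain was encoded by 6 nucleotide sequences, and the one shown made up 34.4% of its UMIs. Another 4 clonotypes are shown because they carry the TRAJ23, TRAJ26 and TRAJ34 segments to which the results below return.
TRAV7-2 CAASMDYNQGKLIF TRAJ23: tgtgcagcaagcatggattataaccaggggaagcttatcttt
TRAV6-5 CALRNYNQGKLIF TRAJ23: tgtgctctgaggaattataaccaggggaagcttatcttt
TRAV4D-3 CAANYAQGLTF TRAJ26: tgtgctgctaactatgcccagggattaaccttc
TRAV4D-3 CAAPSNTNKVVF TRAJ34: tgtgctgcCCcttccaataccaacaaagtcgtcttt

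Here 3 of the 4 had no base between the V and J parts, and the TRAV4D-3 with TRAJ34 chain had 2.

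Segment positions were taken by name from GENCODE M21 (GRCm38, the same build as mm10), and all 32 TRAV and 28 TRAJ segments of the set were found on the plus strand of chromosome 14. The TRAV segments spread from TRAV3-1 (start 52580665) to TRAV21/DV12 (end 53876752), and the TRAJ segments from TRAJ57 (start 54158505) to TRAJ4 (end 54216353). TRAV7-2, which gave 2 of the 6 absent clonotypes, lies at chr14:53390635-53391142, and TRAJ9, also used by 2 of the 6, at chr14:54209393-54209450.

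The first question was in which Il15° libraries the 111 clonotypes were missing. As these libraries were used to choose the set, the values are a description and no test was made. Of the 111 clonotypes, 53 were found in 3 Il15° libraries, 36 in 2, 16 in 1 and 6 in none. Il15° replicates 1 and 4 held 83 and 87 of them, whereas replicates 2 and 3 held 42 and 35. Replicates 2 and 3 were also the shallower ones, with 13758 and 10751 UMIs against 18018 and 18589, and they held 2457 and 2105 clonotypes in all against 4185 and 4205. Over the 12 libraries the totals ran from 7625 to 25980 UMIs, and the smallest belonged to Il2° replicate 4, in which every one of the 111 was present by the rule. The part of depth in the absences was not tested. In Il15° replicates 2 and 3, 3 UMIs made up 0.0218% and 0.0279%. The mean wt share was above this for 59 of the 69 clonotypes missing from replicate 2 and 54 of the 76 missing from replicate 3. These wt means belong to clonotypes chosen for presence in every wt library, and their median over the 111 was 0.0387%. The limits of 3 UMIs cover counting error only. With Il15° replicates 1 and 4 alone, an alternative chosen after seeing the data, 40 clonotypes were missing from at least 1 and 12 from both. The 40 are part of the 111 by the rule itself. Reduced to 7625 UMIs per library, the expected size of the set was 66.2 clonotypes, against 126 for the core and 40.6 for the mirror set.

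**Figure D1:**
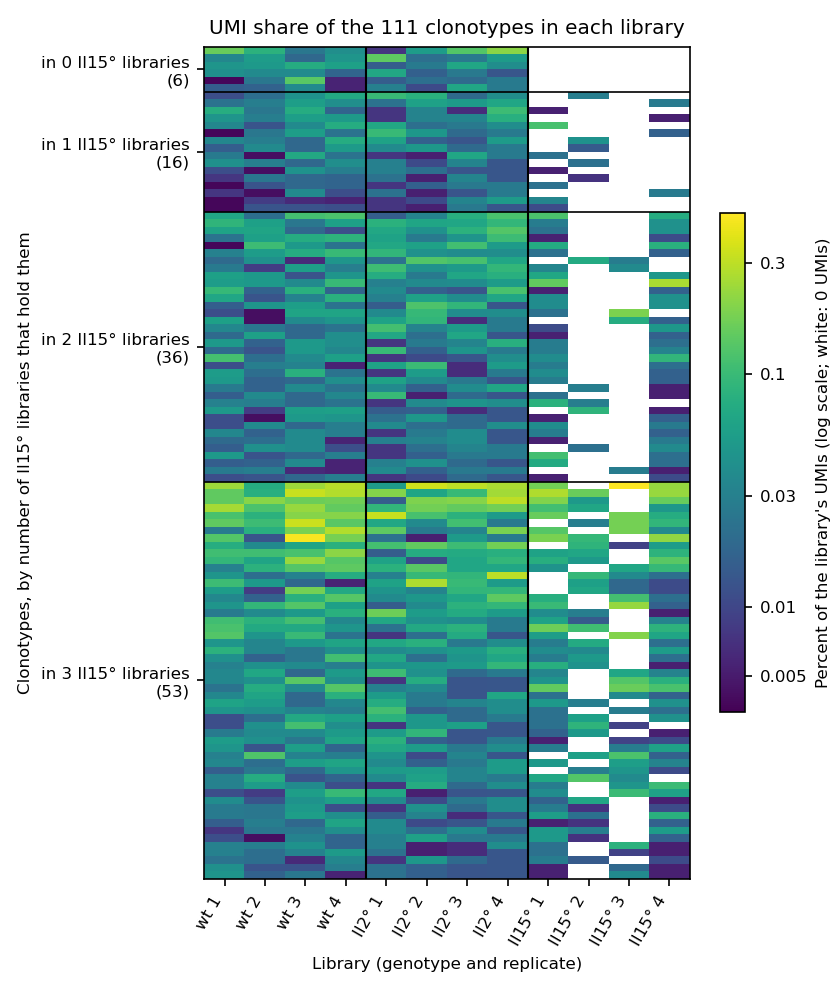
Percent of UMIs (colour, log scale) of each of the 111 clonotypes (lines) in the 12 libraries (columns), with white for 0 UMIs and lines ordered by the number of Il15° libraries that hold the clonotype. The 8 wt and Il2° columns are filled by the rule, and most white fields lie in Il15° replicates 2 and 3, which lacked 69 and 76 of the 111.

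The 6 clonotypes without a UMI in Il15° mice had a median wt share of 0.0408%, against 0.0387% over the 111. TRAV7-2 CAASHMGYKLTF TRAJ9 had 41, 20, 4 and 7 UMIs in wt replicates 1 to 4 and 1, 10, 20 and 16 in the Il2° replicates. Its mean share was 0.0767% ± 0.0595 of the UMIs in wt and 0.100% ± 0.0888 in Il2° (SD, n = 4 mice each, as for all shares). Both genotypes thus held it at levels that ranged widely between mice and overlapped. TRAV7-2 with TRAJ27 was the steadiest in wt, with 12, 12, 12 and 10 UMIs (0.0573% ± 0.0128), and had 2, 5, 10 and 3 in Il2° (0.0366% ± 0.0214).

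TRAV6D-7 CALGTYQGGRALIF TRAJ15 had 9, 13, 3 and 8 UMIs in wt and 19, 4, 4 and 4 in Il2°, where replicate 1 stood above the rest. TRAV5-1 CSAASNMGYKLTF TRAJ9 had 11, 9, 6 and 3 UMIs in wt and 9, 3, 4 and 1 in Il2°. TRAV4D-4 with TRAJ12 was the least abundant of the 6 in wt (0.0189% ± 0.0134), with 4, 4, 6 and 1 UMIs in wt and 4, 2, 10 and 2 in Il2°. TRAV8-1 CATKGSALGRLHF TRAJ18 had 1, 6, 22 and 1 UMIs in wt and 2, 4, 3 and 2 in Il2°, so that wt replicate 3 held most of its wt molecules.

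The 6 were chosen for a count of 0 in every Il15° library, so the bounds below are a description with no test. They cover counting error and not the spread between mice. The 4 Il15° libraries together held 61116 UMIs, and a count of 0 allows a share of up to 0.00491% (3 UMIs). Against this limit the wt mean was at least 15.6-fold higher for TRAV7-2 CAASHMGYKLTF TRAJ9, at least 11.7-fold for TRAV7-2 with TRAJ27 and at least 3.84-fold for TRAV4D-4 with TRAJ12. The other 3 lay between, from at least 6.87-fold for TRAV5-1 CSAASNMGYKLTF TRAJ9 to at least 8.78-fold for TRAV8-1 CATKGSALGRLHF TRAJ18. A single wt library decided some of these bounds: without wt replicate 1 that of TRAV7-2 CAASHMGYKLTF TRAJ9 was at least 10.1-fold, and without wt replicate 3 those of TRAV8-1 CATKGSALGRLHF TRAJ18 and TRAV4D-4 with TRAJ12 were at least 2.36-fold and 2.57-fold. Summed, the 6 took 0.268% ± 0.069 of the UMIs in wt and 0.282% ± 0.095 in Il2° mice.

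**Figure D2:**
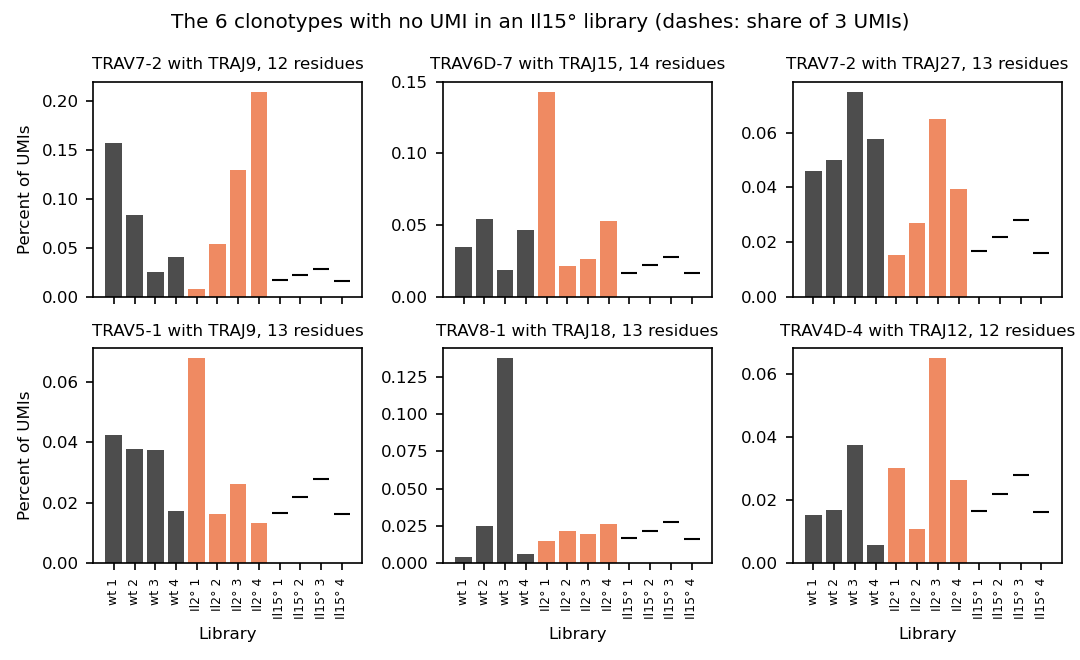
Percent of UMIs of the 6 clonotypes with no UMI in an Il15° library, one panel each, with bars for the 12 libraries (grey wt, orange Il2°) and dashes for the share that 3 UMIs make in each Il15° library. The wt and Il2° bars overlap in each panel, and TRAV8-1 with TRAJ18 has 1 high bar, in wt replicate 3.

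The 8 most abundant of the other clonotypes were each missing from a single Il15° library, and in the remaining 3 they were often as frequent as in wt. TRAV4N-3 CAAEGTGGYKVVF TRAJ12 had 62, 18, 38 and 50 UMIs in wt, 7, 64, 46 and 20 in Il2° and 31, 0, 53 and 42 in Il15° libraries. Its Il15° mean was 0.223% ± 0.204 against 0.210% ± 0.0929 in wt, in spite of the empty library. TRAV4D-3 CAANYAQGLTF TRAJ26 had 38, 19, 52 and 48 UMIs in wt, 26, 12, 15 and 19 in Il2° and 49, 22, 0 and 43 in Il15° libraries. Apart from replicate 3, its Il15° shares (0.160 to 0.272%) lay inside the wt range.

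TRAJ23 was carried by 2 of the 8. TRAV7-2 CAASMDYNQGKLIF TRAJ23 had 38, 49, 26 and 29 UMIs in wt, 2, 35, 31 and 23 in Il2° and 35, 7, 0 and 29 in Il15°. TRAV6-5 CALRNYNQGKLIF TRAJ23 had 31, 20, 32 and 35 in wt, 43, 22, 13 and 4 in Il2° and 28, 0, 19 and 14 in Il15°. The genotypes overlapped for both.

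TRAV4D-3 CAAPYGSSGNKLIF TRAJ32 fell outside this pattern, with 66, 29, 37 and 26 UMIs in wt, 12, 32, 23 and 13 in Il2° and 20, 9, 0 and 9 in Il15°. All its 4 Il15° shares (0 to 0.111%) were below the lowest wt share (0.121%), and the mean was 0.0562% ± 0.0459 against 0.189% ± 0.0636. The rule asks for an empty Il15° library, which helps to produce this gap. Every Il15° share was below every wt share for 19 of the 111 and for 5 of the 178 core clonotypes. TRAV10 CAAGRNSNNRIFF TRAJ31 had 7, 19, 29 and 48 UMIs in wt, 19, 5, 5 and 14 in Il2° and 24, 0, 19 and 7 in Il15°, again overlapping. The last 2 of the 8, TRAV7-3 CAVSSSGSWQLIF TRAJ22 and TRAV4D-3 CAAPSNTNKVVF TRAJ34, are described with the comparison of Il2° and wt.

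Each genotype's summed share of the set was then compared. The 111 clonotypes took 5.23, 4.29, 7.07 and 6.42% of the UMIs in wt replicates 1 to 4 and 5.43, 5.23, 5.03 and 6.18% in the Il2° replicates. The means were 5.76% ± 1.24 and 5.47% ± 0.500, a difference of -0.286 percentage points that did not exceed the variation among mice of 1 genotype (2-sided exact Mann-Whitney test, p = 0.686). The smallest p that 4 against 4 mice allow is 0.0286. The rule asked for presence in every wt and Il2° library and so left out clonotypes lost in Il2° mice, which favours a small difference between these genotypes. The Il15° libraries gave 4.38, 2.13, 3.08 and 3.93% (3.38% ± 0.995), a value lowered by the rule and given with no test. Core clonotypes took 27.8% ± 0.569 in wt, 27.8% ± 1.79 in Il2° and 28.7% ± 0.760 in Il15°. The mirror set took 3.16% ± 0.293 in wt, 1.63% ± 0.119 in Il2° and 3.33% ± 0.300 in Il15°.

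**Figure D3:**
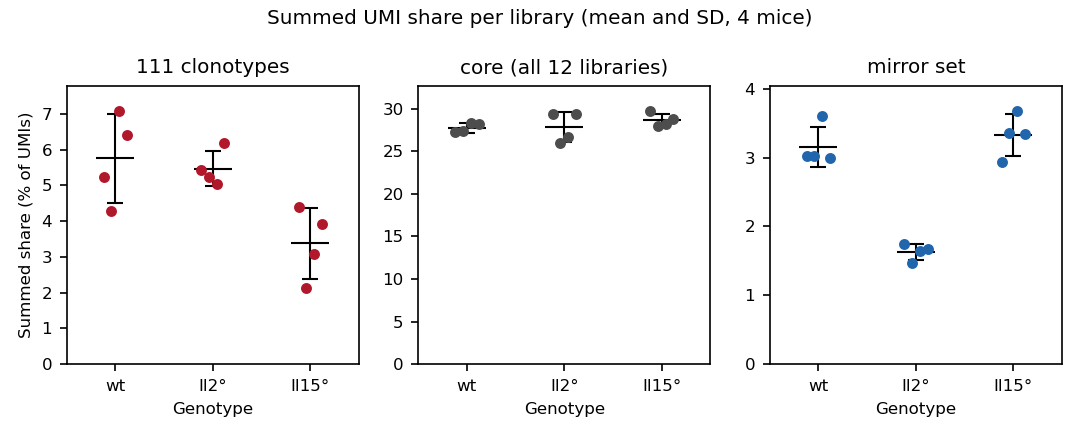
Summed share of the library's UMIs (y axis, %) taken by the 111 clonotypes, the core and the mirror set in each of the 4 libraries per genotype, with mean and SD. The 111 clonotypes overlap between wt (4.29 to 7.07%) and Il2° (5.03 to 6.18%), and their Il15° values and the mirror set's Il2° values are low by the way the sets were chosen.

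Single clonotypes were also compared between Il2° and wt, a contrast in which the rule asks for presence on both sides and so, as for the summed share, favours small differences. The ratio of the Il2° mean to the wt mean had a median of 1.03 over the 111 and ran from 0.134 to 4.26, with 57 clonotypes higher and 54 lower in Il2°. In edgeR's quasi-likelihood test over 464 clonotypes with enough UMIs, 87 of the 111 were tested and none passed an adjusted p of 0.05, as for the 464 (0% called). An unadjusted p under 0.05 was reached by 3 of the 87, whereas 9.27% of all 464 reached it. The median log2 difference, Il2° minus wt, was 0.10 for the 87 and 0.10 for the 464. By DESeq2, 1 of the 87 passed, TRAV4D-3 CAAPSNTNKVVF TRAJ34 (adjusted p = 0.0436), and 8 of all 464 were called.

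TRAV4D-3 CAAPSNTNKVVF TRAJ34 had 34, 3, 75 and 31 UMIs in wt, 3, 1, 8 and 2 in Il2° and 33, 13, 0 and 40 in Il15° libraries. The Il2° shares (0.00536 to 0.0520%) overlapped the wt shares at wt replicate 2 alone (0.0125%), and the log2 difference was -2.75 (SE 0.87, edgeR adjusted p = 0.265). TRAV7-3 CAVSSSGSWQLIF TRAJ22 had 38, 25, 53 and 24 UMIs in wt, 9, 7, 17 and 2 in Il2° and 0, 4, 19 and 17 in Il15°. Its log2 difference was -1.43 (SE 0.58, edgeR adjusted p = 0.391), and the Il2° and wt shares met only between 0.105 and 0.111%. TRAV7-2 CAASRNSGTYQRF TRAJ13 went the other way, with 12, 5, 5 and 13 UMIs in wt, 4, 18, 14 and 23 in Il2° and 0, 13, 4 and 4 in Il15°, and a log2 difference of 1.62 (SE 0.73, edgeR adjusted p = 0.490).

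In wt mice the 111 clonotypes were less abundant than the core and close to the mirror set. Their mean wt shares had a median of 0.0387% and ran from 0.00606 to 0.210%, against medians of 0.0909% in the core and 0.0318% in the mirror set. The medians of those found in 0, 1, 2 and 3 Il15° libraries were 0.0408, 0.0308, 0.0329 and 0.0461%. Across the 111, the mean share over the wt and Il2° libraries had a Spearman correlation of 0.338 with the number of Il15° libraries. It is given as a description with no test, since the rule limits that number. In Il15° mice the mean share was below the wt mean for 93 and above it for 18, and the median ratio was 0.517. The rule asks for an empty Il15° library and so lowers the Il15° means, and these values are a description with no test. For the core, which was selected on presence in these libraries too, 89 were below and 89 above, with a median ratio of 1.00.

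TRAV usage of the set was led by the TRAV4 and TRAV7 families, which gave 33 and 21 of the 111 clonotypes, followed by TRAV12 with 15 and TRAV6 with 13. TRAV4D-3 alone gave 21, TRAV12N-3 and TRAV7-2 gave 9 each, and TRAV4D-4 and TRAV7-3 gave 8 each. TRAV4D-3 clonotypes of the set took 1.35% ± 0.455 of all UMIs in wt, against 1.02% ± 0.117 in Il2° and 0.796% ± 0.325 in Il15° mice. Those with TRAV7-2 took 0.537% ± 0.0840, 0.665% ± 0.413 and 0.183% ± 0.0900 in the same order. The choice of the set lowers the Il15° values, and no test was made. Among clonotypes outside the set, TRAV7-2 was at 5.79% ± 0.805 in Il15° and 5.20% ± 0.392 in wt. TRAV4D-3 was there at 17.0% ± 2.56 in Il15° and 18.8% ± 1.66 in wt.

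TRAV usage was compared with the core as percent of each set's UMIs within the 4 wt libraries. Both sets hold the same clonotypes in every mouse, so these tests and those that follow cover the spread between mice and not the choice of clonotypes. They also treat the values of both sets as separate although they come from the same 4 mice. With the values paired by mouse, an alternative chosen after seeing the data, the smallest exact p is 0.125 (sign-flip permutation test, 2-sided). Every segment and CDR3 difference from the core or the mirror set with an exact p of 0.0286 in wt had the same sign in 4 of 4 mice and a paired exact p of 0.125. TRAV6-5 made up 6.24% ± 1.51 of the UMIs of the set and 1.14% ± 0.278 of those of the core (exact Mann-Whitney test, 2-sided, p = 0.0286, adjusted p = 0.114 over 8 segments). It rests on few clonotypes, 4 in the set and 3 in the core, and the most abundant is TRAV6-5 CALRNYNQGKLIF TRAJ23. Counted once each, its clonotypes made up 3.60% of the set and 1.69% of the core. TRAV4D-4 was at 6.71% ± 1.68 against 11.4% ± 0.838, with the same exact p = 0.0286 and adjusted p = 0.114, but with each clonotype counted once it was at 7.21 against 7.30%. TRAV4D-3 was at 23.1% ± 3.36 against 19.9% ± 2.14 (exact p = 0.114). In the wt libraries none of the 8 TRAV segments passed after adjustment.

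In the Il2° libraries 5 of the 8 passed (exact Mann-Whitney test, 2-sided, p = 0.0286 and adjusted p = 0.0457 for each). TRAV4D-3 (18.8% ± 2.37 against 12.6% ± 1.93) and TRAV6-5 (4.85% ± 2.83 against 0.690% ± 0.162) were higher than in the core. TRAV4D-4 (5.68% ± 1.41 against 9.76% ± 0.873), TRAV7-3 (6.12% ± 1.19 against 10.5% ± 0.903) and TRAV10 (3.56% ± 1.40 against 8.38% ± 3.15) were lower. With V copies merged, the differences of TRAV4D-3 and TRAV7-3 turned in the wt libraries (-3.88 and 1.60 percentage points).

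TRAJ usage differed from the core for 8 of the 11 tested segments that the set used, 5 of them higher and 3 lower (exact Mann-Whitney test in wt libraries, 2-sided, p = 0.0286 and adjusted p = 0.0381 over 12 segments for each). TRAJ23 took 10.1% ± 1.17 of the UMIs of the set and 3.96% ± 0.357 of those of the core. TRAJ26 was at 7.02% ± 1.01 against 1.97% ± 0.675, and TRAJ21 at 6.87% ± 0.551 against 3.06% ± 0.498. TRAJ32 was at 5.25% ± 1.17 against 2.16% ± 0.431. TRAJ22 was at 9.59% ± 2.06 against 5.90% ± 1.43, but the order turned when each clonotype was counted once (7 of 111 against 12 of 178). Counted once, TRAJ23 (7.21 against 6.18% of clonotypes), TRAJ26 (5.41 against 2.81%) and TRAJ32 (3.60 against 2.25%) were still higher but by less, and TRAJ21 was at 8.11 against 3.37%. In the mirror set, counted once and with no test, TRAJ21 (5.71%), TRAJ26 (4.29%), TRAJ32 (4.29%) and TRAJ22 (8.57%) were also above the core. These differences from the core were thus not particular to the 111. TRAJ23 was at 2.86% in the mirror set.

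The 3 lower segments were TRAJ12 (4.99% ± 1.62 against 11.8% ± 2.86), TRAJ15 (3.74% ± 0.897 against 8.57% ± 0.732) and TRAJ37 (3.37% ± 0.429 against 11.04% ± 2.63). Counted once, they made up 4.50 against 11.2%, 4.50 against 7.30% and 4.50 against 8.43% of clonotypes. In the mirror set, in the same order and with no test, they made up 11.4, 2.86 and 2.86%. TRAJ15 and TRAJ37 were thus below the core there too. TRAJ17 was used by no clonotype of the set, so that its share there was 0 in every mouse by construction, and by 8 of the core with 6.16% ± 0.480 of the core's UMIs. Its p was fixed by this and is not read as a result, but it counts among the 12 segments of the adjustment. In the Il2° libraries, 7 of the 8 differences were also found (exact p = 0.0286 and adjusted p = 0.0381 each), and TRAJ22 had an exact p = 0.0571. TRAJ31, with 10 clonotypes, was at 10.2% ± 2.44 against 13.3% ± 2.68 in wt (exact p = 0.2), whereas in the Il2° libraries it was lower than in the core, at 8.17% ± 1.21 against 17.05% ± 3.98 (exact p = 0.0286, adjusted p = 0.0381). Counted once, it made up 9.01 against 7.87% of clonotypes. TRAJ9, with 9 clonotypes, had UMI shares of 7.22% ± 1.05 and 7.004% ± 1.37 in wt.

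The 9 clonotypes with TRAJ9 ended in the residues MGYKLTF, and so did 11 of the core. Together they took 0.407% ± 0.0508 of all UMIs in wt, against 0.477% ± 0.139 in Il2° and 0.150% ± 0.0576 in Il15° mice. Their Il15° values (0.0651 to 0.189%) lay below the wt values (0.335 to 0.450%), a difference that the choice of the set helps to produce. Clonotypes of the set with TRAJ21 took 0.399% ± 0.106 in wt, 0.446% ± 0.0923 in Il2° and 0.210% ± 0.0927 in Il15°, and those with TRAJ37 took 0.192% ± 0.0406, 0.187% ± 0.0508 and 0.0503% ± 0.0396. Those with TRAJ26 were at 0.404% ± 0.0971, 0.373% ± 0.132 and 0.305% ± 0.119. The choice of the set lowers the Il15° values of these segments too. Clonotypes with TRAJ23 overlapped, at 0.470 to 0.676% in wt, 0.566 to 0.761% in Il2° and 0.251 to 0.666% in Il15°.

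**Figure D4:**
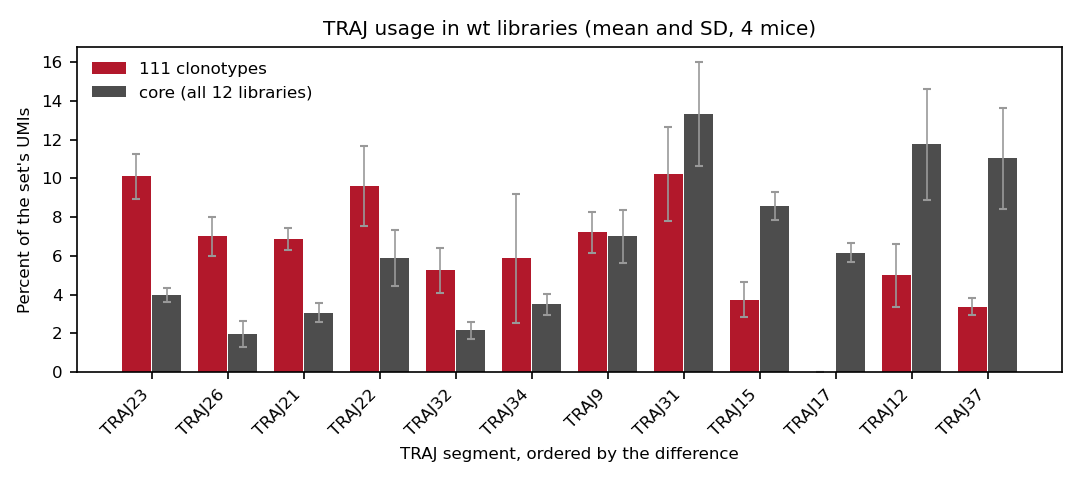
Percent of the set's UMIs (y axis, mean and SD over 4 wt libraries) by TRAJ segment for the 111 clonotypes (red) and the core (grey), ordered by the difference. TRAJ23, TRAJ26, TRAJ21, TRAJ22 and TRAJ32 are higher in the 111, TRAJ22 in UMIs but not when each clonotype is counted once, and TRAJ15, TRAJ17, TRAJ12 and TRAJ37 are higher in the core.

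Segment usage was also compared between genotypes over the clonotypes outside the set, a comparison chosen after seeing the data. Of 21 segments none passed after adjustment, and between Il15° and wt TRAJ32 alone had an exact p under 0.05 (1.43% of UMIs against 2.17%, exact p = 0.0286, adjusted p = 0.300). Between Il2° and wt 3 did (exact Mann-Whitney test, 2-sided, p = 0.0286, adjusted p = 0.171 each). TRAV4D-3 was at 12.7% ± 1.71 in Il2° against 18.8% ± 1.66 in wt. TRAV7-2 was at 6.64 against 5.20% and TRAJ37 at 4.59 against 6.05%. TRAJ23 was at 6.33% ± 0.935 in Il15° and 5.94% ± 0.558 in wt among those clonotypes, and TRAJ26 at 3.54% ± 0.221 and 3.12% ± 0.261.

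The 111 clonotypes used 92 distinct V and J pairs. TRAV4D-3 with TRAJ37 was the most frequent, with 4 clonotypes and 8 in the core. TRAV3D-3 with TRAJ23 gave 3 clonotypes and none in the core. TRAV10 with TRAJ31, TRAV4D-3 with TRAJ31 and TRAV4D-3 with TRAJ32 gave 3 each, with 2, 4 and 4 in the core. In 2 cases the same CDR3 and J occurred with 2 V segments: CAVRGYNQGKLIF with TRAV3D-3 and TRAV7-5, and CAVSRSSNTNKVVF with TRAV7-3 and its near copy TRAV7D-3.

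CDR3s of the set were shorter than those of the core. Weighted by UMIs, the mean length in wt libraries was 12.93 residues ± 0.0311 against 13.15 ± 0.0293, lower in 4 of 4 mice (exact Mann-Whitney test, 2-sided, p = 0.0286, adjusted p = 0.0357 over 5 measures). In Il2° libraries it was 12.91 ± 0.0471 against 13.11 ± 0.0331 (exact p = 0.0286, adjusted p = 0.0476). Counted once each, the means were 12.99 and 13.10, and with V copies merged the UMI-weighted difference was -0.116 residues. CDR3s of 11 residues made up 15 of the 111 clonotypes and 15.7% ± 1.73 of their wt UMIs, against 12 of 178 and 5.45% ± 0.568 in the core. At 14 residues the set had 30 clonotypes and 26.1% ± 1.35 of its UMIs, the core 59 and 34.4% ± 1.40. Against the mirror set, at 13.13 ± 0.114 residues, the exact p was 0.0286 and the adjusted p 0.0714.

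The middle of the CDR3, without its first 3 and last 3 residues, was richer in hydrophobic residues (F, I, L, M, V, W and Y) and poorer in charged ones (D, E, K and R) than in the core. Hydrophobic residues made up 15.5% ± 0.985 in wt libraries against 10.8% ± 0.520, higher in 4 of 4 mice, and charged residues 16.5% ± 0.723 against 21.0% ± 0.781, lower in 4 of 4 mice (exact p = 0.0286 and adjusted p = 0.0357 for both). In Il2° libraries the values were 16.9% ± 0.653 against 10.9% ± 0.732 and 17.1% ± 0.592 against 21.6% ± 0.325 (exact p = 0.0286, adjusted p = 0.0476 for both). With each clonotype counted once the gaps were smaller, 16.1 against 12.6% hydrophobic and 17.6 against 19.7% charged. Of all such residues, counted once per clonotype and with no test, tyrosine made up 7.40 against 6.27%, valine 3.38 against 1.67%, methionine 2.34 against 1.75% and glycine 17.1 against 21.4%. Isoleucine was also higher (0.909 against 0.714%), but leucine (0.909 against 1.27%), tryptophan (0.909 against 1.03%) and phenylalanine (0.260 against 0.317%) were lower. Of the charged residues, lysine (8.05 against 8.97%) and arginine (5.71 against 7.06%) were lower. Aspartate (1.69 against 1.51%) and glutamate (2.34 against 1.90%) were higher. When presence required 2 UMIs, the hydrophobic excess was 1.41 percentage points (exact p = 0.0571). Against the mirror set, hydrophobic residues were at 15.5% against 12.2% ± 1.21 (exact p = 0.0286, adjusted p = 0.0714), and this order turned with presence at 2 UMIs (-0.715 percentage points, exact p = 0.2). Charged residues were at 16.5% against 17.8% ± 0.789 in the mirror set (exact Mann-Whitney test, 2-sided, p = 0.114, adjusted p = 0.143). Counted once, that order turned, at 17.6 against 17.2%.

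**Figure D5:**
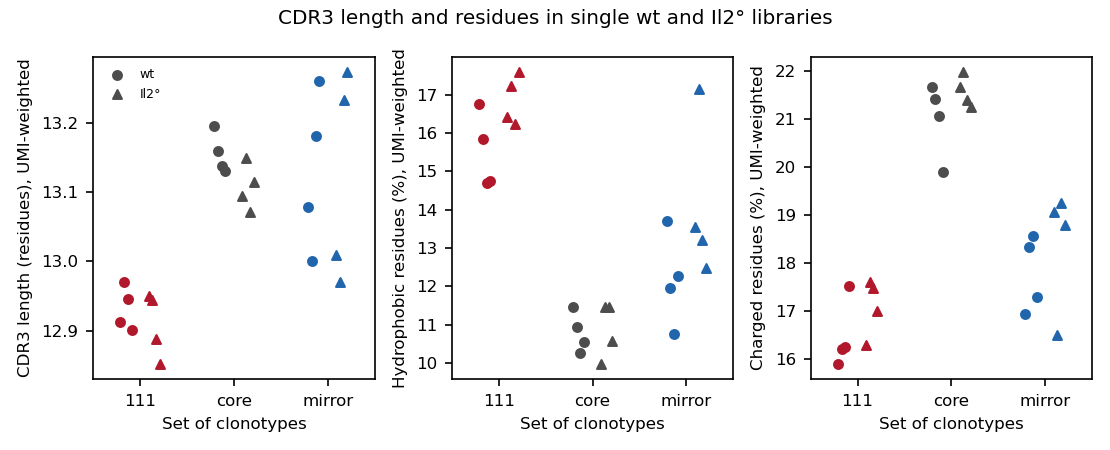
UMI-weighted CDR3 length (residues), hydrophobic and charged residues (% of the middle of the CDR3) of the 111 clonotypes, the core and the mirror set, 1 point per wt (circle) or Il2° (triangle) library, on axes that do not start at 0. The 8 points of the 111 lie below the core in length (12.9 against 13.1 to 13.2 residues in wt) and charge and above it in hydrophobic residues.

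Bases between the V and J parts numbered 1.79 ± 0.112 per molecule in wt libraries for the set and 1.47 ± 0.0837 for the core (exact p = 0.0286, adjusted p = 0.0357). In Il2° libraries the values were 1.84 ± 0.292 and 1.65 ± 0.0505 (exact p = 0.686), and with presence at 2 UMIs the excess in wt was 0.130 bases (exact p = 0.486). Molecules without any such base made up 39.7% ± 4.41 and 42.6% ± 1.43 in wt (exact p = 0.686). The mirror set, at 2.01 ± 0.269 bases in wt, was also above the core, with no test. The excess over the core was thus not particular to the set. From the mirror set it differed by -0.221 bases (exact Mann-Whitney test, 2-sided, p = 0.343). That order turned with V copies merged (0.159 bases, exact p = 0.2).

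Reading frame was also examined. By the sequences in the tables, 105 of the 111 were in frame without a stop codon, and 6 (5.41%) were flagged as out of frame or with a stop. In the core 4 were flagged (2.25%) and in the mirror set 3 (4.29%), and no test was made. The 6 of the set used TRAJ7, TRAJ44 and TRAJ47, with 2 clonotypes each, and were found in 1 to 3 Il15° libraries. Their wt means ran from 0.0171 to 0.0516% of UMIs.

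Near copies of the clonotypes were then looked for in the Il15° libraries, since V segments of the duplicated TRAV cluster resemble each other and 1 CDR3 can be joined to several. For 47 of the 111 (42.3%) an Il15° library held the same CDR3 and J with another V, against 102 of 178 in the core (57.3%). For 23 (20.7%) that V was a copy, named alike but for the letter D or N. With such copies merged, 8 of the 111 were present in all 4 Il15° libraries. TRAV4N-3 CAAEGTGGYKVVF TRAJ12, the most abundant, was one of them, with 39 UMIs assigned to TRAV4D-3 in Il15° mice. TRAV4D-3 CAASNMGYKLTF TRAJ9 was another, with 136 UMIs assigned to TRAV4N-3.

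None of the 6 absent clonotypes had such a V copy. The CDR3 of TRAV4D-4 with TRAJ12 was carried, also with TRAJ12, by 7 other TRAV segments in Il15° libraries, with 77 UMIs. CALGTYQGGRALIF with TRAJ15 was found with TRAV6-7/DV9, with 5 UMIs. A CDR3 that differed by 1 residue, with the same V and J, was present in Il15° libraries for 92 of the 111 (82.9%), for 163 of the 178 core clonotypes (91.6%) and for 5 of the 6. TRAV8-1 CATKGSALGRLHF TRAJ18 had neither kind of neighbour there.

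Clonotypes close to the border of the rule showed how it divides the repertoire. Just inside it, with a single empty Il15° library and the most UMIs in the other 3, were TRAV4N-3 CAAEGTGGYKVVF TRAJ12, TRAV4D-3 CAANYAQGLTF TRAJ26 and TRAV4D-3 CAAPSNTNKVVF TRAJ34, with 31, 53 and 42, with 49, 22 and 43 and with 33, 13 and 40 UMIs. Just outside it were core clonotypes such as TRAV4-2 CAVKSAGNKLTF TRAJ17, with 1, 4, 1 and 7 UMIs, and TRAV12N-3 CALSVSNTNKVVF TRAJ34, with 5, 1, 1 and 7. Another, of TRAV4D-3 and TRAJ47, had 4, 6, 1 and 3. Of the 178 core clonotypes, 39 had a smallest Il15° count of 1 UMI, and 56 of the 111 had 1 UMI in at least 1 wt or Il2° library. Of the 53 clonotypes found in 3 Il15° libraries, 46 had 10 or more UMIs over them.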

How the data were processed

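Tcra mRNA was sequenced from 12 libraries, 1 per mouse (4 wt, 4 Il2° and 4 Il15°). The authors selected reads with a quality above 20, used pRESTO to build a consensus for each UMI with 2 or more reads, assigned segments and CDR3s with MiXCR and exported tables for VDJtools. The deposited count is a raw whole number of UMIs per sequence, with no normalization. Software versions and the segment library are not given in the sources used here, and the labels name mm10.

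Counts of nucleotide sequences with the same V, CDR3 amino acid sequence and J were summed, and presence meant at least 1 UMI. The clonotypes, lists and tests were chosen with earlier results of these data known. Shares are percent of a library's UMIs, and totals ran from 7625 to 25980, so that 3 UMIs stood for 0.0115 to 0.0393%. Bases between V and J came from the deposited segment ends. Segments were tested where 1 of the compared sets had 5% or more of its UMIs in them. Libraries were compared with exact Mann-Whitney tests (2-sided, Benjamini-Hochberg adjustment). Clonotypes that reached 5 UMIs in 4 or more of 8 libraries were compared by edgeR 4.0.16 (quasi-likelihood, TMM, adjustment over all tested, threshold 0.05), with DESeq2 1.42.0 as an alternative, in R 4.3.3. Other steps used Python 3.11.15, numpy 2.4.6, pandas 2.3.3, scipy 1.17.1 and matplotlib 3.10.9. The scripts were tested on simulated data. Named clonotypes were the 6 absent ones, the 8 next most abundant over wt and Il2° libraries, 3 on either side of the border and those with an unadjusted edgeR p under 0.05, and clonotypes named beyond these were chosen after their values were seen. CDR3s of 15 or more residues, out of frame or with letters that could be read as bases are named by segments. Invariant chains were TRAV11 or TRAV11D with TRAJ18 (iNKT) and TRAV1 with TRAJ33 and 12 residues (MAIT). Replicate numbers do not mark the same animal, and same-numbered wt and Il2° libraries did not deviate together (correlations of -0.185, 0.0661, -0.105 and 0.125). Alternatives covered merged V copies, presence at 2 UMIs, presence in 3 of 4 libraries, equal depth, in-frame clonotypes, other filters, a replicate block and leaving out each library. Pairing the sets by mouse (exact sign-flip permutation test) was chosen after seeing the data. All 12 libraries were used.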

Additional observations from a re-analysis of the deposited data

Results flagged for a closer look

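Of 52 groups of 4 libraries examined over the summed shares, measures and named clonotypes, 1 held a library far from the other 3, where chance flags about 1 in 20 groups, or 2.6. TRAV8-1 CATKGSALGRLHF TRAJ18 took 0.138% of the UMIs of wt replicate 3 and 0.00385 to 0.0251% in the other wt mice, a gap of 0.841 of the whole range.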

How the results depend on the processing

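The size of the set depended on the rule. It was 111 as deposited, 397 with presence in 3 of 4 wt and Il2° libraries, 40 with Il15° replicates 1 and 4 alone (chosen after seeing the data) and an expected 66.2 at the smallest UMI total. With V copies merged it was 133, of which 102 belonged to the 111, and with presence at 2 UMIs 76, of which 55 did. The 6 absent from every Il15° library became 10 with V copies merged, 2 with presence at 2 UMIs, 55 with 3 of 4 libraries, 12 with the 2 Il15° libraries and 3.99 at equal depth. Leaving out each library in turn gave 88 to 157 clonotypes, and 6 to 13 absent ones: 12 without Il2° replicate 1 or 4, and 13, 11 and 10 without Il15° replicate 1, 2 or 4.

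The summed share, Il2° minus wt, ran from -0.775 to 0.153 percentage points with a library left out, the highest without wt replicate 3 (exact p = 1), and was 0.0138 over the 6 absent clonotypes (exact p = 0.886). Against the core, leaving out a wt mouse gave -0.234 to -0.203 residues of length, 0.281 to 0.366 bases between V and J, 4.51 to 4.88 percentage points of hydrophobic and -5.26 to -4.13 of charged residues. Here 3 against 3 libraries cannot go below an exact p of 0.1. Paired by mouse (chosen after seeing the data), the differences stay -0.223 residues, 0.322 bases, 4.71 points hydrophobic and -4.54 charged against the core and -0.198 residues and 3.35 points hydrophobic against the mirror set, each with an exact p of 0.125, the smallest that 4 pairs allow. Each clonotype counted once gave -0.110 residues, 0.155 bases, 4.64 points of molecules without such a base, 3.50 hydrophobic and -2.03 charged, with no test. The excess of bases was 0.192 in Il2° libraries (exact p = 0.686), 0.130 with presence at 2 UMIs (exact p = 0.486) and 0.299 for the 6 absent (exact p = 0.114). Molecules without such a base, -2.92 points in wt, were at 0.117 in Il2° libraries, 0.314 with presence at 2 UMIs and 0.916 with V copies merged (exact p of 0.886 to 1). The hydrophobic excess was 1.41 points with presence at 2 UMIs (exact p = 0.0571) and 7.36 for the 6 absent, and the charged difference -2.65 with presence at 2 UMIs and 0.111 for the 6 absent (exact p = 0.486). Length differed by -0.116 residues with V copies merged and -0.346 for the 6 absent.

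Against the mirror set, the main differences in wt were -0.221 bases (exact Mann-Whitney test, 2-sided, p = 0.343) and 8.65 points without such a base (exact p = 0.0571). For charged residues the main difference was -1.31 points (exact p = 0.114). Leaving out a wt mouse gave -0.253 to -0.144 residues and 3.15 to 3.63 points of hydrophobic residues, and the 6 absent gave -0.321 residues (exact p = 0.0571). With presence at 2 UMIs the differences were -0.425 residues, -0.601 bases and 18.9 points without such a base (exact p = 0.0286 each), -0.715 hydrophobic (exact p = 0.2) and 1.44 charged (exact p = 0.0571). V copies merged gave 0.159 bases (exact p = 0.2), 0.591 points without such a base, 5.27 hydrophobic and -3.80 charged (exact p = 0.0286), in-frame clonotypes 9.13 points without such a base (exact p = 0.0286), the 6 absent 5.998 hydrophobic and 3.34 charged (exact p = 0.0286) and each clonotype counted once 0.463 charged.

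Segment differences that turned were TRAV4D-3 (-3.88) and TRAV7-3 (1.60) with V copies merged, TRAV4N-3 (0.251) and TRAJ34 (-0.222) in Il2° libraries, and TRAJ22 (-0.435), TRAV10 (1.58), TRAV7-2 (-0.881) and TRAJ31 (1.14) counted once, which also moved TRAJ23 (1.03), TRAJ26 (2.60), TRAJ32 (1.36), TRAJ37 (-3.92), TRAJ15 (-2.80), TRAV6-5 (1.92), TRAV12N-3 (-4.25) and TRAV4D-4 (-0.0962) by more than 1.5 times. For Il2° against wt, DESeq2 called 8 of 464 clonotypes and 1 of the 87 of the set that were tested. With edgeR over clonotypes public in wt or Il2°, 50 of 800 and 1 of the 111 were called. The called clonotype of the set was TRAV4D-3 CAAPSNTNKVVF TRAJ34 in both cases. Without a filter edgeR called 2 of 18246 clonotypes and 0 of the 111. Members of the set with an unadjusted p under 0.05 numbered 3 of 87, against 43 of all 464 tested. With DESeq2 they numbered 5 of 87 (54 of all 464) and with its size factors in edgeR 5 of 87 (48 of 464). Over clonotypes public in wt or Il2° they numbered 5 of 111 (162 of 800). Without Il2° replicate 1 they numbered 5 of 74 (45 of 402) and without wt replicate 3 1 of 72 (22 of 393). The replicate number as a block gave 0 called clonotypes and 2 of 87 of the set with an unadjusted p under 0.05, against 38 of all 464. The numbers do not pair the mice, and the block changed no call. The cause of these changes was not tested. In the shallowest Il15° library shares below 0.0279% fall under 3 UMIs, and the median wt share of the 111 was 0.0387%. The part of depth in the absences was not tested.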

Other observations

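The TRAV12 family gave 22 of the 70 clonotypes of the mirror set (31.4%) and 15 of the 111 (13.5%), and TRAV12N-3 gave 18 and 9. TRAV6 gave 3 of the 70 and 13 of the 111. These shares were read after the sets were chosen and no test was made.

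Chains of the MAIT form (TRAV1 with TRAJ33 and a CDR3 of 12 residues, 8 clonotypes) were at 11, 25, 5 and 9 UMIs in wt, 19, 9, 4 and 12 in Il2° and 0, 0, 3 and 2 in Il15° libraries. Their share was 0.0575% ± 0.0325 in wt and 0.00967% ± 0.0132 in Il15° mice, lower in 4 of 4 Il15° libraries than in any wt library (exact Mann-Whitney test, 2-sided, p = 0.0286, chosen after seeing the values). In Il2° it was 0.0937% ± 0.0662 (exact p = 0.686 against wt). The invariant iNKT chain, present in all 12 libraries, was at 0.0340% ± 0.0276 in wt, 0.0208% ± 0.00900 in Il2° and 0.0371% ± 0.0347 in Il15° (exact p = 0.686 for each mutant against wt).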
